A study of Mus musculus with 16 samples.

Results

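Regulatory T cells (Treg cells) are CD4+ T cells that restrain immune responses and are defined by the transcription factor Foxp3. The data described here compare 4 arrays of Atg7+/- Treg cells from mice given rapamycin with 4 arrays of Atg7+/- Treg cells from untreated mice, 8 of the 16 arrays of the series. The other 8 arrays hold Atg7-/- Treg cells, 4 from mice given rapamycin and 4 from untreated mice. All 8 Atg7+/- samples came from C57BL/6 mice of the genotype Atg7+/flFoxp3-Cre, in which a Cre recombinase under Foxp3 control acts on 1 floxed copy of Atg7, the gene of an enzyme that autophagy requires. The untreated controls therefore carry the Cre and the floxed copy too, and mice with both copies of Atg7 intact were not analysed here. Rapamycin was injected intraperitoneally at 4 mg per kg once a day for 5 days. The controls are labelled untreated and no vehicle is named, so what the injections did, or what the drug did through other cells of the mouse, cannot be told apart from its action in Treg cells. Spleen and peripheral lymph nodes gave the CD4+ cells, sorted for the Foxp3-YFP reporter, and every sample was then stimulated for 4 h on antibodies to CD3 and CD28, so both groups show activated cells. The comparison covers every gene with a probe set of a single symbol, 22180 genes, of which 16760 had a level high enough to be tested. The labels do not say whether the 4 replicates of a group are separate mice, so the p-values reflect only how far the samples vary, and some of that variation may be technical. Each gene's spread was estimated from all 16 arrays, so the Atg7-/- arrays also shape the p-values given for Atg7+/- cells.

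Rapamycin binds the small protein FKBP12, and the pair inhibits mTORC1, the complex of the kinase mTOR that reads amino acids, growth factors and antigen receptor signals. Active mTORC1 promotes ribosome production, translation, glycolysis and lipid synthesis and holds autophagy back. It also keeps transcription factors of the TFEB family, which turn on lysosomal and autophagy genes, out of the nucleus. A second complex, mTORC2, acts on the kinase Akt, which keeps the Foxo transcription factors out of the nucleus, and long exposure to rapamycin can impair that complex as well. In Treg cells mTORC1 is known for supporting the effector state, in which cells carry tissue homing receptors and suppressive molecules. The phosphorylation state of mTOR targets was not measured here.

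The arrays carried the signature of Treg cells. All 6 genes of a list of defining markers lay far above the level of silent genes. Foxp3 read 11.24, 11.32, 11.24 and 11.24 on the log2 scale in the untreated arrays and 11.35, 11.46, 11.21 and 11.35 under rapamycin, groups that overlapped (log2 fold change 0.08, SE 0.101, limma adjusted p = 0.635). Il2ra, the high-affinity IL-2 receptor chain, had a mean level of 12.03 and a log2 fold change of 0.04. The other 3 of the genes chosen as controls of the setting also failed the test. Mtor had a log2 fold change of 0.02 (SE 0.0843, limma adjusted p = 0.885), Fkbp1a, which encodes FKBP12, of -0.17 (SE 0.0772, adjusted p = 0.148), and Atg7 of 0.13 (SE 0.134, adjusted p = 0.571). The direction for Mtor turned, to -0.01, without untreated replicate 3. Array medians over all probe sets were 4.51 to 4.63, and arrays departed from their group means by a root mean square of 0.137 to 0.178 over the genes tested.

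Genes of odorant and pheromone receptors (symbols starting with Olfr or Vmn) are not expected to be active in T cells, and they served as a silent reference for the size of change that this assay gives where no change is looked for. Of 1394 such genes 286 passed the filter on dim genes. Their median log2 fold change under rapamycin was -0.002, but 95% of them had an absolute log2 fold change below 0.922, and 57 of 286 (19.9%) were called at an adjusted p under 0.05 in limma, 36 higher and 21 lower. Over all 16760 genes tested 14.1% were called, 1011 higher and 1359 lower. Higher calls made up 42.7% of these as deposited and 53.8% (1105 higher, 949 lower) with each array centred on its median, a step that moved the median of all genes by 0.03. The reference was not silent at all levels. In 4 bins of receptor genes by level, from dim to bright, 27.8%, 15.5%, 5.63% and 30.6% were called, against 5.46%, 3.92%, 5.87% and 18.0% of named genes of other classes in the same ranges of level. The brightest bin was wide, from 4.571 to 12.06. Its receptor genes had a median level of 5.34 and its other genes of 6.93, so levels there were not matched.

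The receptor genes that moved most moved far. Olfr726 read 3.87, 4.01, 4.47 and 4.10 in untreated arrays and 6.19, 6.13, 6.92 and 6.98 under rapamycin (log2 fold change 2.44, SE 0.21, limma adjusted p = 8.55e-06). Olfr310 read 4.53, 5.28, 4.61 and 5.96 against 2.98, 2.45, 2.97 and 2.68 (-2.32, SE 0.276, adjusted p = 5.69e-05). Olfr584 rose by 1.93 and Olfr1502 fell by 1.54, and for each of the 4 genes the groups did not overlap. Of the 57 called receptor genes 53 changed in the same direction in the separate arrays of Atg7-/- cells, and 33 were called there. The share of receptor genes called depended on the filter: it was 5.38% of all 1394 with no filter, 1.81% of the 1108 that the filter leaves out, and 40.0% of the 70 that a stricter filter kept, which asked for a highest group mean above 4.775. Whether these signals come from the receptor genes, from other transcripts that reach the same probes or from the amplification of small RNA amounts was not tested.

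For these reasons each change below is set against 2 measures from the receptor genes. A gene is described as well measured where its mean level over the 8 arrays exceeded 6.162, which 6597 named genes did. That level was the 95th percentile of the 286 receptor genes that passed the filter. A change is described as beyond the receptor range where its absolute log2 fold change exceeded 0.922, the same percentile for those 286 genes. The filter keeps a gene that is high in 1 group only, so it can favour receptor genes that move. With no filter the 95th percentile of the absolute change was 0.492 over all 1394 receptor genes. It was 0.353 over the 1108 that the filter leaves out. Among well-measured genes 1378 (20.9%) were called, 536 higher (8.12%) and 842 lower (12.8%). Over all genes tested 150 (0.895%) were called and beyond that range. Among the well-measured ones 54 (0.819%) were also beyond the receptor range, 15 higher (0.227%) and 39 lower (0.591%), and 5 exceeded 1.513, the 95th percentile of the brightest of those 4 bins. Most changes described here were thus smaller than those of the most mobile receptor genes that passed the filter. The 4 rapamycin and 4 untreated arrays did not overlap for 34.4% of well-measured genes.

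**Figure D1:**
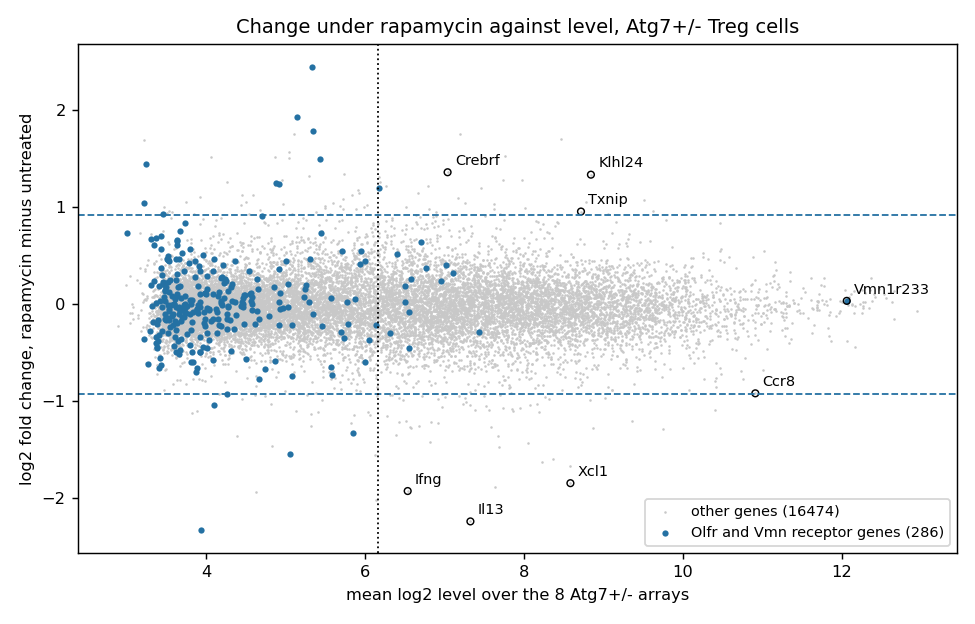
Log2 fold change under rapamycin (vertical axis) against the mean log2 level over the 8 Atg7+/- arrays (horizontal axis) for 16760 genes, with 286 receptor genes in blue. Dashed lines mark 0.922 in both directions and the dotted line the level of 6.162; Crebrf, Klhl24, Il13, Ifng and Xcl1 lie outside the dashed lines to the right of the dotted line, and Vmn1r233, the brightest receptor gene, lies at a level of 12.06.

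The 12 well-measured genes that rose most were of varied function. Crebrf, a regulator of the stress-induced transcription factor Creb3, read 6.37, 6.24, 6.41 and 6.42 in untreated arrays and 7.76, 7.73, 7.69 and 7.70 under rapamycin (2.57-fold or 1.36 on the log2 scale, SE 0.113, limma adjusted p = 8.55e-06). Klhl24, a substrate adaptor of a ubiquitin ligase, read 8.23, 8.21, 8.27 and 7.99 against 9.33, 9.64, 9.61 and 9.46 (2.52-fold, 1.33, SE 0.134, adjusted p = 1.85e-05). Hbp1, a transcriptional repressor that restrains the cell cycle, read 8.25, 8.17, 8.30 and 8.29 against 9.35, 9.47, 9.26 and 9.14 (2.08-fold, 1.05, SE 0.106, adjusted p = 1.85e-05). In each of these genes the lowest rapamycin array lay well above the highest untreated array. Tsc22d1, a transcriptional regulator, rose by 1.31, H60b, a ligand of the activating receptor NKG2D, by 1.28, and Ube2h, a ubiquitin-conjugating enzyme, by 0.98. Cmss1 rose by 1.03, Myo9a, an unconventional myosin, by 0.99, and Casc1 by 0.98. Phxr4, which rose most of all (1.53), the keratin-associated gene Krtap4-13 (1.22) and the interferon gene Ifna4 (1.14) completed the 12 largest rises. In Phxr4 the rapamycin arrays split, at 9.07 and 9.10 in replicates 1 and 2 against 8.08 and 7.87 in replicates 3 and 4. Rapamycin replicates 1 and 2 also lay above replicates 3 and 4 in Tsc22d1 (7.19 and 7.13 against 6.55 and 6.46), Ifna4 (7.71 and 7.46 against 6.87 and 6.90), Myo9a (8.83 and 8.78 against 8.15 and 8.27) and Casc1.

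Txnip, which encodes a protein that lowers glucose uptake, was just beyond the receptor range, at 8.35, 8.18, 8.54 and 7.89 in untreated arrays and 8.80, 9.21, 9.31 and 9.46 under rapamycin (1.94-fold or 0.955 on the log2 scale, SE 0.158, limma adjusted p = 0.000895). All 4 rapamycin arrays lay above all 4 untreated arrays. Txnip is a known target of the glucose-sensing factors MondoA and Mlx, which bind a pair of E-box-like elements in its promoter, and of Foxo factors. Mlx itself read 7.70, 7.79, 7.79 and 7.62 against 6.75, 7.06, 7.18 and 7.21 (fell by 0.67, SE 0.12, adjusted p = 0.00158), and Mlxip, which encodes MondoA, had a log2 fold change of -0.18 (adjusted p = 0.202).

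The promoters of 3 of the risers are shown because their letters hold elements that factors downstream of mTOR and of glucose are known to read. Each is the run of 250 bases before the transcription start in RefSeq's annotation of mouse GRCm38.p6, written 5′ to 3′ along the gene's strand. Those of Txnip (chr3:96557707-96557956, plus strand), Hbp1 (chr12:31950246-31950495, minus strand) and Crebrf (chr17:26715400-26715649, plus strand) read as follows. Capitals mark CACGNG, the E-box-like element, on either strand in Txnip, GTAAACA, the core read by forkhead factors such as Foxo, in Txnip and Hbp1, and TCACGTGA, the core of the element read by the TFEB family, in Crebrf.
Txnip: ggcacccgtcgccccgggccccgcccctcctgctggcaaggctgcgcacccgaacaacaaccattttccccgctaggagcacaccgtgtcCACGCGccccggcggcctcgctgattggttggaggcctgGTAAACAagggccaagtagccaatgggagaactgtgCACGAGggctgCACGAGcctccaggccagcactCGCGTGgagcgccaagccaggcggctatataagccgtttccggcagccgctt
Hbp1: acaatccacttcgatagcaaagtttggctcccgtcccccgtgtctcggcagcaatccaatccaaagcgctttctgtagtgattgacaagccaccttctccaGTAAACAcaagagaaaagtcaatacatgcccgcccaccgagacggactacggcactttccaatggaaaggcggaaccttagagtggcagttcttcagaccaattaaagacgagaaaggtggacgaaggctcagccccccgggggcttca
Crebrf: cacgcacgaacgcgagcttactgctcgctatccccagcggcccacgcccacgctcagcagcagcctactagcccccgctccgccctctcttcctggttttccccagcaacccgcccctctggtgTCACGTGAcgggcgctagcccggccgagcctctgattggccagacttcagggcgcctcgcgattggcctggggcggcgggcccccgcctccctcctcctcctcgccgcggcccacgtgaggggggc
The Txnip promoter held 4 matches to CACGNG, at -160, -85, -74 and -52 from the start, and 1 to GTAAACA at -121. Hbp1 held GTAAACA at -149 and Crebrf TCACGTGA at -126. Klhl24 is not among the promoters used here.

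These elements are common, and a match is a description and not a site. CACGNG, which includes CACGTG, was found on either strand in 23.5% of all 32851 promoters and GTAAACA in 3.17%. Among promoters of well-measured genes GTAAACA was found in 27 of 549 of those called higher (4.92%), in 15 of 865 of those called lower (1.73%) and in 106 of 5431 of those not called (1.95%). TCACGTGA, which contains CACGTG, was found in 3.46% of promoters of genes called higher and in 1.50% of those called lower. It was found in 1.75% of those not called and in 0.785% of all promoters. In the autophagy list described below it was found in 2 of 40 promoters, and in 0 of 11 promoters of called genes. In the lysosomal list it was found in 5 of 45 promoters (11.1%). There it was found in 2 of 6 promoters of called genes, all of which fell. CACGNG had nearly the same share in the 3 groups of well-measured genes, at 37.9%, 36.2% and 37.3%. CACGNG and GTAAACA were chosen after the values were seen, and no share was tested.

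The largest falls were led by effector cytokine and chemokine genes. Il13, a type 2 cytokine, read 8.23, 8.82, 8.40 and 8.33 in untreated arrays and 6.48, 5.69, 6.79 and 5.87 under rapamycin (4.71-fold lower, SE 0.3 on the log2 scale, limma adjusted p = 0.000156). Ifng, the type 1 cytokine interferon gamma, read 7.35, 7.09, 8.02 and 7.54 against 5.59, 5.26, 5.96 and 5.50 (3.79-fold lower, SE 0.392, adjusted p = 0.00409). Xcl1, a chemokine that attracts cross-presenting dendritic cells, read 9.66, 9.32, 9.48 and 9.56 against 7.82, 7.56, 7.87 and 7.40 (3.59-fold lower, SE 0.226, adjusted p = 7.65e-05). Every rapamycin array of these 3 genes lay more than 1 log2 unit below every untreated array. S100a4, a calcium-binding protein of effector cells, fell by 1.43, Slamf7, a surface receptor of activated lymphocytes, by 1.27, and the chemokine gene Ccl3 by 1.26. Epas1, which encodes the hypoxia-inducible factor HIF-2alpha, read 6.92, 6.82, 7.41 and 7.70 against 5.48, 5.94, 6.23 and 6.12 (2.42-fold lower, SE 0.216, adjusted p = 0.0011).

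The remaining genes among the 12 largest falls were of varied function. Cotl1, an actin-binding protein, read 8.33, 8.42, 8.56 and 8.36 against 6.44, 6.95, 7.14 and 7.28 (2.77-fold lower, SE 0.181, limma adjusted p = 7.65e-05). Nrn1, which encodes the surface protein neuritin known from Treg and anergic T cells, fell by 1.35, C2cd4b also by 1.35, and Npy, the gene of neuropeptide Y, by 1.42. Hspa1a, inducible heat-shock protein 70, fell by 1.88 (SE 0.513, adjusted p = 0.0207), from 8.43, 8.80, 8.69 and 8.39 to 6.80, 6.31, 7.20 and 6.48. It has a near-identical copy that can share its probes. Its adjusted p was 0.0527 without untreated replicate 2 and 0.061 without rapamycin replicate 2. Its SE also carries the spread of the Atg7-/- arrays, with a standard deviation of 1.56 under rapamycin against 0.395 in Atg7+/- cells.

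**Figure D2:**
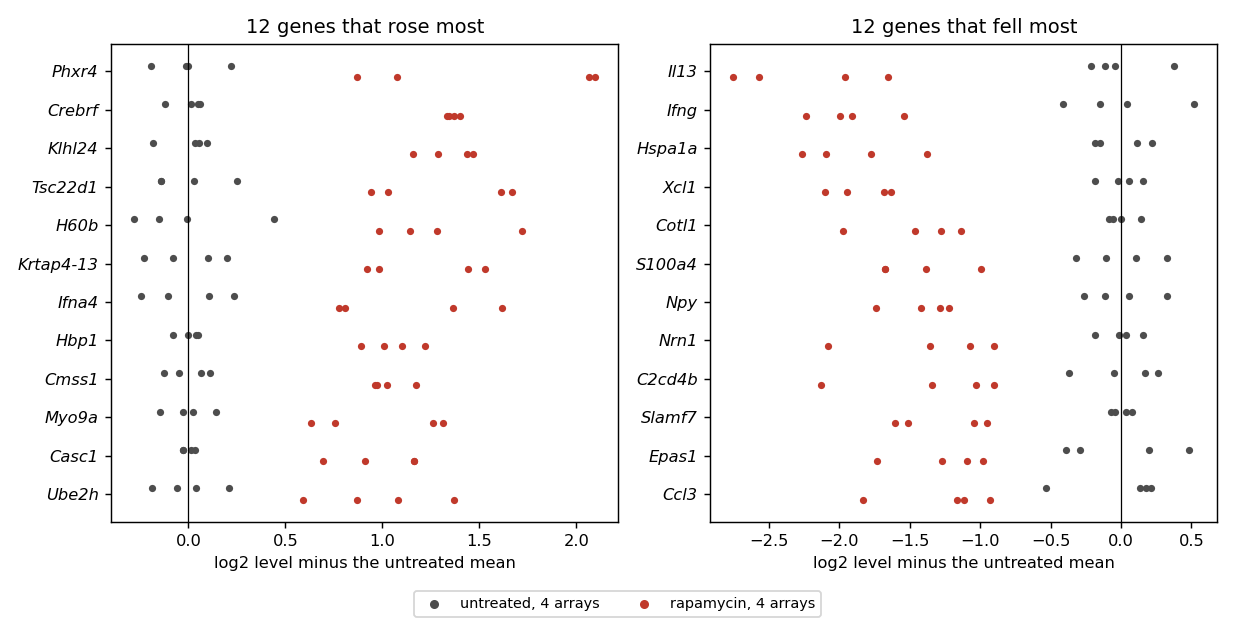
Log2 level of each array minus the gene's untreated mean for the 12 well-measured genes that rose most (left) and the 12 that fell most (right), with untreated arrays in grey and rapamycin arrays in red. The groups do not overlap in any of the 24 genes, and the rapamycin arrays of Crebrf lie closer together than those of Phxr4.

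Gene lists were described by how many members were called in each direction, against 6.03% of all genes tested called higher and 8.11% called lower, and by the median log2 fold change, which was -0.03 over all genes. The lists with the largest shares of falling genes were glycolysis, cytokines, proximal T cell receptor signalling, homing receptors and effector Treg genes, and those with the largest shares of rising genes were autophagy and resting T cell genes.

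**Figure D3:**
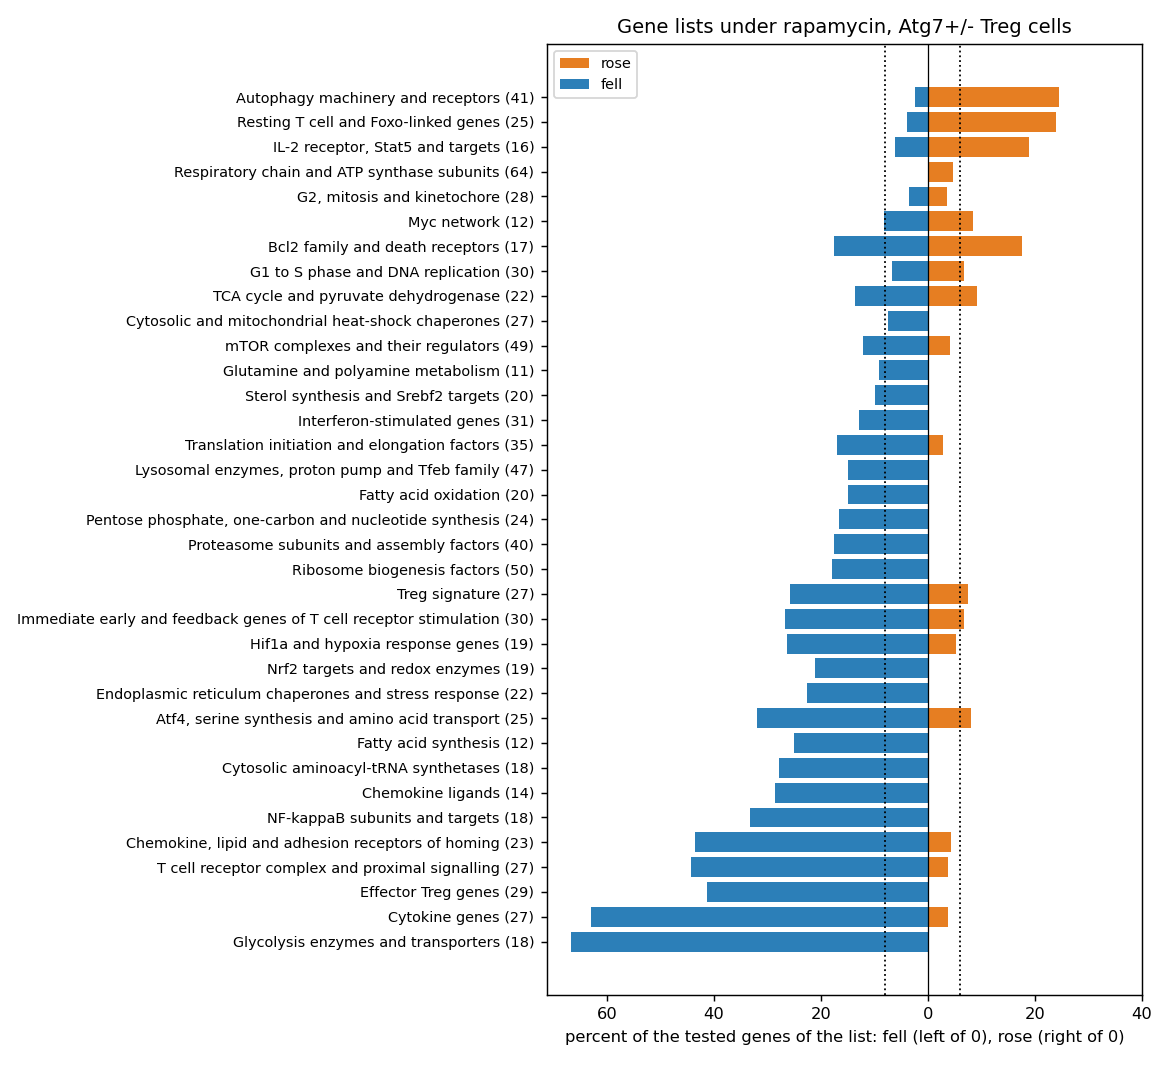
Percent of the tested genes of each list that were called higher (orange, right of 0) or lower (blue, left of 0) under rapamycin in Atg7+/- Treg cells, with the number tested in brackets. Dotted lines mark the shares over all genes, 6.03% higher and 8.11% lower; glycolysis reaches 66.7% lower and autophagy 24.4% higher.

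Few transcripts of the mTOR complexes themselves were called. Of 49 genes of the complexes and their regulators 2 rose (4.08%) and 6 fell (12.2%), with a median of -0.08. The share that fell was near the 12.8% of well-measured genes called lower, against 8.11% over all genes tested. The risers were both subunits of mTORC2. Mapkap1, which encodes the subunit SIN1, read 7.54, 7.55, 7.64 and 7.43 in untreated arrays and 7.96, 8.01, 8.02 and 8.09 under rapamycin (1.40-fold, SE 0.078 on the log2 scale, limma adjusted p = 0.000777), and Rictor read 7.82, 7.71, 7.89 and 7.71 against 8.15, 8.22, 8.19 and 8.01 (1.28-fold, SE 0.0824, adjusted p = 0.00782). In both genes the groups did not overlap. Rptor, the defining subunit of mTORC1, had a log2 fold change of 0.02 (adjusted p = 0.912). Among the genes that fell, Akt1, the kinase upstream of mTORC1 and target of mTORC2, went down by 0.43, Sesn2, a leucine sensor with a level below the receptor floor, by 0.59, and Rraga, a GTPase that brings mTORC1 to the lysosome, by 0.36. Ddit4, also with a level below the receptor floor, fell most of the list (0.80). Its call was lost without any 1 of 4 arrays (limma adjusted p from 0.0639 to 0.0908). Castor1, an arginine sensor, fell by 0.67, with an adjusted p of 0.054 in limma without untreated replicate 2 and 0.0653 without rapamycin replicate 1. Leaving out either of those 2 arrays reduced the count of falling genes to 3.

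Part of the autophagy genes rose. Of 41 genes of the machinery and its cargo receptors 10 were called higher (24.4%) and 1 lower, with a median of 0.06. Atg13, the scaffold of the kinase complex that starts autophagy, read 6.48, 6.39, 6.42 and 6.43 in untreated arrays and 7.26, 7.44, 7.37 and 7.32 under rapamycin (1.88-fold or 0.91 on the log2 scale, SE 0.0988, limma adjusted p = 2.79e-05). Its partner in that complex Rb1cc1 read 7.94, 8.05, 7.90 and 7.76 against 8.80, 8.70, 8.51 and 8.60 (1.67-fold, 0.74, SE 0.0981, adjusted p = 0.000143). The kinase gene Ulk2 rose by 0.65 and Wdr45, a reader of the lipid made on the forming membrane, by 0.73. Pik3c3, the lipid kinase that makes it, read 7.57, 7.71, 7.85 and 7.62 against 8.20, 8.23, 8.27 and 8.11, and the cargo receptor gene Tax1bp1 rose by 0.33. Of the 10 risers 6 kept the call without any 1 of the 8 arrays. Other parts of the pathway did not pass the test. The related kinase Ulk1 had a log2 fold change of 0.17 (adjusted p = 0.332), the cargo receptor Sqstm1 of 0.23 (0.192) and Becn1, a partner of Pik3c3, of -0.09 (0.576). Atg9a, a membrane protein of the pathway with a level below the receptor floor, fell by 0.31, a call that was lost without 6 of the 8 arrays taken 1 at a time (untreated replicates 1, 2 and 4 and rapamycin replicates 1, 2 and 3, limma adjusted p from 0.0652 to 0.0879) and with median centring (0.0595).

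Lysosomal genes did not rise with them. Of 47 genes of lysosomal enzymes, the proton pump and the TFEB family 7 fell (14.9%) and none rose, with a median of -0.08. That share was near the 12.8% of well-measured genes called lower, against 8.11% over all genes tested. Ctsb, the protease cathepsin B, read 8.72, 8.83, 8.83 and 8.76 in untreated arrays and 7.97, 7.93, 8.46 and 8.38 under rapamycin (1.51-fold lower, SE 0.14 on the log2 scale, limma adjusted p = 0.00901). Atp6v1a, a catalytic subunit of the proton pump, read 7.06, 7.30, 7.34 and 7.03 against 6.44, 6.48, 6.77 and 6.70 (1.50-fold lower, SE 0.122, adjusted p = 0.00457). The groups did not overlap in either gene. The pump subunit Atp6v0b fell by 0.43 and the protective protein Ctsa by 0.51. The genes of the TFEB family were not called: Tfe3 had a log2 fold change of -0.29 (adjusted p = 0.126), and Tfeb (0.12) and Mitf (0.05) had levels below the receptor floor.

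Glycolysis genes fell together. Of 18 tested genes of the pathway and its transporters 12 fell (66.7%) and none rose, with a median of -0.41, and 9 of the 12 kept the call without any 1 array. They ran from the glucose transporter Slc2a1 (-0.29), through the hexokinases Hk1 and Hk2, to pyruvate kinase Pkm and Slc16a1, a transporter that exports lactate. Hk2 read 7.92, 7.87, 7.87 and 7.89 in untreated arrays and 7.28, 7.22, 7.36 and 7.29 under rapamycin (1.52-fold lower, SE 0.0758 on the log2 scale, limma adjusted p = 9.46e-05). Pkm read 10.56, 10.44, 10.40 and 10.39 against 9.74, 9.84, 9.94 and 9.85 (1.52-fold lower, SE 0.0946, adjusted p = 0.000615), and Slc16a1 read 8.40, 8.26, 8.39 and 8.42 against 7.37, 7.72, 8.06 and 7.68 (1.58-fold lower, SE 0.113, adjusted p = 0.00116). In Slc16a1 rapamycin replicate 1 was lowest and replicate 3 nearest to the untreated arrays. Pgk1, an enzyme that yields ATP, read 9.87, 9.95, 9.74 and 9.73 against 9.24, 9.20, 9.45 and 9.46, and Gapdh, often used as a loading control, fell by 0.40. Ldha, which makes lactate, was tested through a probe set with a mean level of 5.31, below the receptor floor, and had a log2 fold change of 0.04. No glycolysis gene was beyond the receptor range.

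Promoters of the falling glycolysis genes are shown because members of the pathway moved together and because their letters hold the core ACGTG, which the hypoxia-inducible factors read and which lies inside the CACGTG E box of Myc. ACGTG was found on either strand in 12 of 25 glycolysis promoters (48.0%, 17 genes), in 22.1% of promoters of well-measured genes called lower, in 24.4% of those not called and in 16.6% of all promoters. The Hk2 promoter (chr6:82774455-82774704, minus strand) and the Pgk1 promoter (chrX:106186850-106187099, plus strand) each held it at 2 places, and the Slc16a1 promoter (chr3:104638414-104638663, plus strand) held CACGTG at -200. Capitals mark ACGTG or its reverse complement in Hk2 and Pgk1 and CACGTG in Slc16a1.
Hk2: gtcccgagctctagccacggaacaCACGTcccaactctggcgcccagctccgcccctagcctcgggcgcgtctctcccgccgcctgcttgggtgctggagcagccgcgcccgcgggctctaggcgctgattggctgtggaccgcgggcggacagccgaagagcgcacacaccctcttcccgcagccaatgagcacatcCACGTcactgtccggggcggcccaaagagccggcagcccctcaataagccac
Pgk1: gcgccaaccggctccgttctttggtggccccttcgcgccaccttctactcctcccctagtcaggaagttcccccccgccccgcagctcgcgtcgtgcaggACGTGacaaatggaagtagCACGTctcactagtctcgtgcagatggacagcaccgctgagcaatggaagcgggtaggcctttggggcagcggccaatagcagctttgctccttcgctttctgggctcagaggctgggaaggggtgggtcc
Slc16a1: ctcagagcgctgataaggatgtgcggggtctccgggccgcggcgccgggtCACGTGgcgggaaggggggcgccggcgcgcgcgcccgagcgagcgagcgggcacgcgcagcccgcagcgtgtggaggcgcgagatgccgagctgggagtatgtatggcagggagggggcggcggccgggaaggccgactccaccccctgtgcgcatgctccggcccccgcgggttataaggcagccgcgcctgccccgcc
Transcripts of factors known to read these elements did not move together. Epas1 fell, as above, while Hif1a had a log2 fold change of -0.06 and was not called. Max, of the Myc network, was not called either (-0.24). Myc read 11.06, 11.08, 11.10 and 11.14 in untreated arrays and 11.26, 11.37, 11.20 and 11.20 under rapamycin, arrays that did not overlap, but the change was not called (log2 fold change 0.16, SE 0.0908, limma adjusted p = 0.258). Among 19 genes of the hypoxia response 1 rose, the histone demethylase Kdm3a (0.51). In that list 5 fell (26.3%, against 8.11% over all genes tested), including Ero1a, which oxidises the thiols of secreted proteins (-0.41). That count fell to between 1 and 3 without any 1 of the 8 arrays.

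Few lipid synthesis genes were called. Srebf2, the master regulator of sterol synthesis, read 8.87, 8.90, 8.89 and 8.87 in untreated arrays and 8.23, 8.32, 8.54 and 8.39 under rapamycin (1.43-fold lower, SE 0.0947 on the log2 scale, limma adjusted p = 0.00205). It and Hsd17b7 (-0.70, with a level below the receptor floor) were the 2 called of 20 sterol genes, and 15 of the 20 had a negative log2 fold change (median -0.24). That share was near the 8.11% over all genes tested and below the 12.8% of well-measured genes. The count was 4 without rapamycin replicate 3, 6 with array weights and 9 in a fit of the 8 arrays alone. Fasn, fatty acid synthase, read 9.08, 9.02, 9.07 and 8.96 against 8.40, 8.51, 8.55 and 8.71 (1.40-fold lower, SE 0.104, adjusted p = 0.00519), and Acsl4, which activates long-chain fatty acids, fell by 0.46. Slc25a20, the carnitine carrier of fatty acid oxidation, fell by 0.58. In nucleotide synthesis Atic, which catalyses the last steps of purine synthesis, read 9.58, 9.57, 9.63 and 9.56 against 8.90, 8.90, 9.02 and 9.03 (1.54-fold lower, SE 0.0761, adjusted p = 7.65e-05). Psat1, an enzyme of serine synthesis, fell by 0.54, and the amino acid carrier genes Slc7a5 and Slc38a1 by 0.45 and 0.41.

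Few genes of mitochondrial respiration were called. In a list of 64 subunits of the respiratory chain and ATP synthase 3 rose and none fell, with a median of 0.02, and the count of risers ranged from 3 to 11 over the ways of scaling the arrays. The subunits of complex II, which belongs to the chain and to the TCA cycle, were counted in the TCA list. In that list 2 of 22 rose (9.09%) and 3 fell (13.6%, near the 12.8% of well-measured genes called lower), with a median of -0.13. The fallers were the complex II genes Sdhc (-0.35) and Sdhd (-0.34) and Mpc1 (-0.80), a carrier of pyruvate into mitochondria, and each lost the call without some single arrays (adjusted p from 0.0569 to 0.109). With each array centred on its median the count of falling TCA genes was 1. Cox7a2, a subunit of cytochrome oxidase, read 9.89, 9.92, 9.94 and 9.86 in untreated arrays and 10.20, 10.12, 10.20 and 10.24 under rapamycin (1.22-fold, SE 0.0722 on the log2 scale, limma adjusted p = 0.0134). Suclg2, a subunit of succinyl-CoA synthetase in the TCA cycle, read 8.17, 8.23, 8.09 and 7.78 against 8.64, 8.59, 8.68 and 8.66 (1.49-fold, SE 0.0939, adjusted p = 0.000827). Without untreated replicate 4 or rapamycin replicate 4 the count of rising respiratory subunits was 1.

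Genes of the T cell receptor complex and of proximal signalling fell. Of 27 such genes 12 were called lower (44.4%) and 1 higher, with a median of -0.24, and 9 of the 12 kept the call without any 1 array. Zap70, the kinase that docks on the activated receptor, read 9.33, 9.32, 9.36 and 9.27 in untreated arrays and 8.24, 8.13, 8.67 and 8.29 under rapamycin (1.98-fold lower, SE 0.144 on the log2 scale, limma adjusted p = 0.000324). Its substrate Lat, the scaffold of the signalling complex, read 11.03, 11.10, 11.07 and 11.08 against 10.36, 10.26, 10.50 and 10.39. Vav1, which links the receptor to the cytoskeleton, read 8.03, 8.16, 8.12 and 8.12 against 7.25, 7.45, 7.46 and 7.32 (1.66-fold lower, SE 0.0942, adjusted p = 0.000111). In these 3 genes the groups were far apart. The receptor chain Cd3e fell by 0.55, its partner Cd3g also by 0.55, the coreceptor Cd4 by 0.67 and Thy1, a surface glycoprotein, by 0.88. Cd3e and Cd4 are also Treg defining markers, and they were the 2 of those 6 genes to be called. Malt1, a protease that carries the signal to NF-kappaB, rose by 0.41, and its adjusted p was 0.0602 without rapamycin replicate 1.

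Of 18 NF-kappaB subunits and targets 6 fell (33.3%) and none rose, with a median of -0.25. Nfkbie, which encodes an inhibitor of NF-kappaB, read 7.97, 7.99, 8.03 and 7.88 in untreated arrays and 6.82, 7.05, 7.16 and 7.07 under rapamycin (1.92-fold lower, SE 0.128 on the log2 scale, limma adjusted p = 0.000172). The related genes Bcl3, Nfkbid and Nfkbib fell by 0.58, 0.54 and 0.40. Other feedback genes of the pathway were not called, among them the related genes Nfkbia (-0.14, adjusted p = 0.281) and Nfkbiz (0.17, adjusted p = 0.29). Nor were Tnfaip3, which edits ubiquitin (-0.06, adjusted p = 0.721), and Birc3 (0.12, adjusted p = 0.363). The immediate early genes of receptor stimulation gave no stable count. In that list 8 of 30 were called lower (26.7%, against 12.8% of well-measured genes) and 2 higher (median -0.30). Over the 8 fits that each left out 1 array the count of falling genes ran from 0 to 10, at 0 to 4 in 7 of them. After median centring the count was 3, and with array weights it was 13. Cd69, an early activation marker, read 10.94, 11.05, 10.92 and 11.05 against 11.31, 11.34, 11.32 and 11.19 (1.23-fold higher, SE 0.0731, adjusted p = 0.0114).

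**Figure D4:**
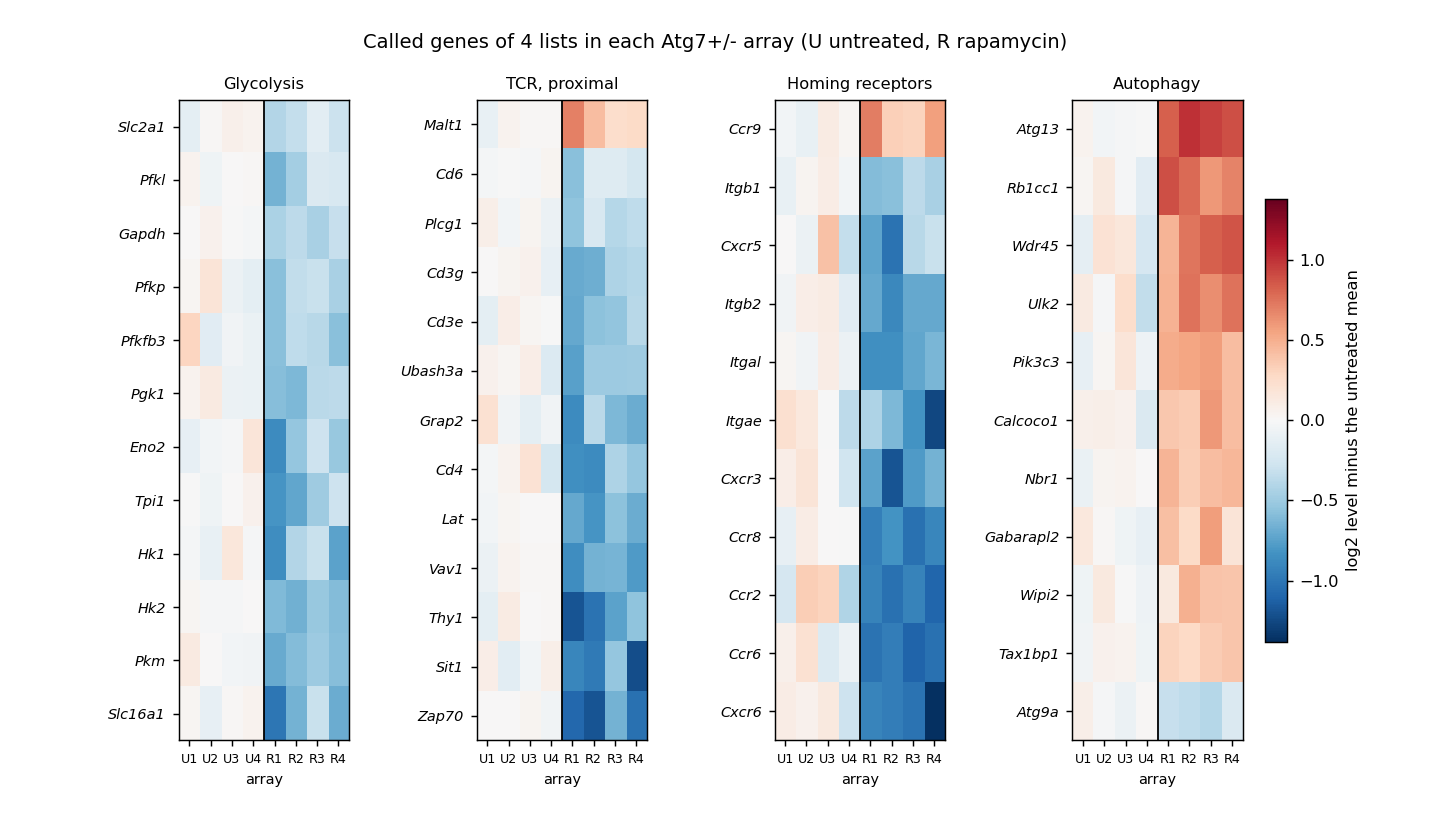
Log2 level of each Atg7+/- array minus the gene's untreated mean, as colour (red above, blue below), for the called genes of glycolysis, proximal T cell receptor signalling (TCR), homing receptors and autophagy. Columns are the 4 untreated (U) and the 4 rapamycin (R) arrays; the rapamycin columns are blue for all 12 glycolysis genes and red for 10 of the 11 autophagy genes.

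Receptors that bring T cells into inflamed tissue fell. Of 23 chemokine, lipid and adhesion receptors 10 were called lower (43.5%) and 1 higher, with a median of -0.31. Ccr8, a chemokine receptor typical of activated Treg cells, read 11.26, 11.47, 11.38 and 11.36 in untreated arrays and 10.43, 10.54, 10.34 and 10.47 under rapamycin (1.89-fold lower, SE 0.0833 on the log2 scale, limma adjusted p = 1.36e-05). Cxcr6 read 8.58, 8.54, 8.62 and 8.19 against 7.57, 7.53, 7.46 and 7.10 (2.09-fold lower, SE 0.169, adjusted p = 0.000657), and Ccr6 read 8.74, 8.88, 8.49 and 8.59 against 7.66, 7.72, 7.57 and 7.64 (2.04-fold lower, SE 0.184, adjusted p = 0.00166). Cxcr3, the receptor that leads cells to interferon-rich sites, fell by 0.84. The fall extended to integrins: Itgal, the alpha chain of LFA-1, read 9.04, 8.97, 9.12 and 8.94 against 8.17, 8.17, 8.30 and 8.39, its beta chain Itgb2 fell by 0.75, and Itgae, which holds cells in epithelium, by 0.79. Ccr7 and S1pr1, which govern passage through lymph nodes, had log2 fold changes of 0.14 and 0.23 and were not called (adjusted p = 0.454 and 0.573). Ccr2 fell by 0.99, with an adjusted p of 0.0547 and 0.0535 in limma without untreated replicates 2 and 3. Ccr9, the gut-homing receptor, with a level below the receptor floor, rose by 0.48, a call lost without untreated replicate 2 or rapamycin replicates 1 or 4 (adjusted p = 0.0557, 0.0686 and 0.0515).

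Secreted products fell across classes. Of 27 cytokine genes 17 fell (63.0%), 1 rose and 8 changed beyond the receptor range, with a median of -0.68. Il10, a cytokine by which Treg cells suppress, read 9.55, 9.80, 10.11 and 9.74 in untreated arrays and 9.37, 8.95, 9.03 and 9.14 under rapamycin (1.60-fold lower, limma adjusted p = 0.00565). Il3, which encodes interleukin 3, a growth factor of blood cells, read 7.18, 6.78, 7.61 and 7.02 against 4.95, 4.99, 5.20 and 5.40 (4.04-fold lower, SE 0.37 on the log2 scale, adjusted p = 0.00201), and Tnfsf14, the ligand LIGHT, read 5.77, 5.95, 6.03 and 6.05 against 4.65, 4.66, 4.82 and 4.69 (2.38-fold lower, SE 0.138, adjusted p = 3.33e-05). Mean levels of both over the 8 arrays were below the receptor floor. Not every cytokine gene passed the test: Il4 read 6.11, 6.43, 6.39 and 6.45 against 6.49, 5.76, 6.18 and 5.99, groups that overlapped (adjusted p = 0.573). Of 14 chemokine ligand genes 4 fell (28.6%, against 8.11% over all genes tested) and none rose, with a median of -0.49. The count was 7 with array weights and 8 in a fit of the 8 arrays alone, and the median was -0.86 over the 11 genes that a stricter filter kept. Ccl4, an inflammatory chemokine, read 8.56, 8.24, 8.56 and 8.22 against 7.64, 6.97, 7.37 and 7.28 (2.11-fold lower, SE 0.173, adjusted p = 0.000701). The 1 riser among cytokines was Il9 (0.87), at a level below the receptor floor, whose call was lost without any 1 of 6 arrays (adjusted p from 0.0525 to 0.112), untreated replicates 1 to 4 and rapamycin replicates 1 and 2.

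Core Treg genes and effector Treg genes differed in their counts. In the effector list 12 of 29 genes (41.4%) were called lower and 0 higher, with a median of -0.38 and 5 of them beyond the receptor range. S100a6, a calcium-binding protein, read 9.44, 9.64, 9.62 and 9.30 in untreated arrays and 8.97, 8.26, 8.50 and 8.39 under rapamycin (1.96-fold lower, SE 0.233 on the log2 scale, limma adjusted p = 0.0106). The inhibitory receptor Pdcd1 fell by 0.88 and Tbx21, the factor of the type 1 programme, by 0.80, while Tbx21 had a log2 fold change of 0.11 in Atg7-/- cells. Of 27 genes of the Treg signature 2 rose (7.41%) and 7 fell (25.9%). Called lower were 8.11% of all genes tested and 12.8% of well-measured genes. The median of the signature was -0.05, which turned to 0.01 under 1 of the ways of scaling. Without untreated replicate 3 or rapamycin replicate 2 the fallers numbered 4. The risers, the costimulatory receptor Tnfrsf18 (0.29) and the folate receptor family gene Izumo1r (0.40), each lost the call when 1 of several arrays was left out (adjusted p from 0.0502 to 0.0656 without untreated replicates 1 or 2 or rapamycin replicate 2, and 0.0519 and 0.0708 without untreated replicate 2 and rapamycin replicate 4). Nrp1, a surface receptor of thymus-derived Treg cells, read 8.16, 8.37, 8.35 and 8.12 against 7.14, 7.25, 7.50 and 7.68 (1.81-fold lower, SE 0.135, adjusted p = 0.000634), and Tigit, an inhibitory receptor, fell by 0.48. Ctla4 (-0.05, adjusted p = 0.8) and Ikzf2 (-0.01, adjusted p = 0.944) were not called.

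A group of genes of resting T cells rose. Of 25 genes in a list linked to quiescence and to Foxo factors 6 rose (24.0%) and 1 fell, with a median of 0.15, and 4 of the 6, Txnip included, kept the call without any 1 array. Bach2, a repressor that preserves the resting state, read 7.53, 7.61, 7.44 and 7.58 in untreated arrays and 8.26, 8.47, 8.02 and 7.95 under rapamycin (1.55-fold, SE 0.137 on the log2 scale, limma adjusted p = 0.00582). Ccng2, an atypical cyclin of cells leaving the cycle, read 6.88, 6.85, 6.82 and 6.64 against 7.43, 7.52, 7.73 and 7.55 (1.69-fold, SE 0.108, adjusted p = 0.00027). Klf2, a Foxo target that maintains recirculation, was not called (0.38, adjusted p = 0.0527). Slfn2, a gene required for quiescence, fell by 0.47, against the direction of the others. The transcripts of Foxo1 (-0.19, adjusted p = 0.299) and Foxo3 (0.35, adjusted p = 0.114) were not called.

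Regulators of cell death showed no common direction. Of 17 genes 3 rose and 3 fell (17.6% each), against 6.03% called higher and 8.11% lower over all genes tested. Each direction held both protective and death-promoting genes. Among those that protect cells, Bcl2 read 9.69, 9.56, 9.57 and 9.47 in untreated arrays and 10.13, 10.42, 10.09 and 9.99 under rapamycin (1.50-fold, SE 0.119 on the log2 scale, limma adjusted p = 0.00401), and Mcl1 read 10.19, 10.29, 10.23 and 10.22 against 10.66, 10.75, 10.68 and 10.66 (1.37-fold, SE 0.0789, adjusted p = 0.0012). Bcl2l1, which encodes the protective protein Bcl-xL, went the other way (fell by 0.39). Bak1, which opens the mitochondrial membrane in dying cells, read 9.64, 9.76, 9.97 and 9.82 against 8.64, 8.91, 9.17 and 9.19 (1.77-fold lower, SE 0.131, adjusted p = 0.000657), and the death receptor gene Tnfrsf10b fell by 0.64. Bmf, a death-promoting member with a level below the receptor floor, rose by 0.47, with an adjusted p of 0.0567 without rapamycin replicate 4.

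Genes of growth fell in part. Of 50 ribosome biogenesis factors 9 fell (18.0%, against 12.8% of well-measured genes) and none rose, with a median of -0.17. With array weights 14 fell. Ubtf, which drives transcription of ribosomal RNA, read 8.43, 8.53, 8.46 and 8.32 in untreated arrays and 7.99, 7.61, 7.91 and 7.94 under rapamycin (1.49-fold lower, SE 0.0978 on the log2 scale, limma adjusted p = 0.00112), and Rrn3, which brings the RNA polymerase to the same genes, fell by 0.43. Among 35 translation factors 6 fell (17.1%) and 1 rose. The count of falling genes was 3 without untreated replicates 2 or 4 or rapamycin replicate 2. Eif4h, a helper of the helicase that opens messenger RNA, read 9.24, 9.26, 9.34 and 9.18 against 8.49, 8.57, 8.71 and 8.58 (1.59-fold lower, SE 0.0829, adjusted p = 8.08e-05), and Eif4e, the cap-binding protein held in check when mTORC1 is off, read 9.77, 9.79, 9.79 and 9.82 against 9.41, 9.42, 9.52 and 9.47 (1.26-fold lower, SE 0.0754, adjusted p = 0.00691). In both genes all 4 rapamycin arrays lay below all 4 untreated arrays. The riser, the elongation factor gene Eef1b2 (0.27), had an adjusted p of 0.0504 without untreated replicate 2.

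The lists of protein quality control differed in their shares. Of 27 heat-shock chaperones 2 fell (7.41%), near the share over all genes, with a median of -0.08, or 4 in a fit of the 8 arrays alone. The fallers were Hspa1a and Bag3, a co-chaperone (-0.62). Of 22 chaperones and stress genes of the endoplasmic reticulum 5 fell (22.7%, against 12.8% of well-measured genes) and none rose, or 8 fell and 1 rose with array weights. They included Calr, which encodes calreticulin (-0.37), the chaperone gene Hyou1 (-0.39) and Herpud1, of the pathway that clears misfolded proteins (-0.51). Of 40 proteasome genes 7 fell (17.5%, against 12.8% of well-measured genes) and none rose, or 4 fell without rapamycin replicate 1 or 2. Psmd3, a subunit of the regulatory particle, read 8.25, 8.28, 8.31 and 8.16 in untreated arrays and 7.46, 7.53, 7.69 and 7.63 under rapamycin (1.59-fold lower, SE 0.0989 on the log2 scale, limma adjusted p = 0.000343). Txnrd1, thioredoxin reductase, read 9.17, 9.13, 9.11 and 9.01 against 8.54, 8.56, 8.71 and 8.62 (1.41-fold lower, SE 0.093, adjusted p = 0.00227).

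Cell cycle genes showed no common direction after 4 h of stimulation. Of 30 genes of S phase entry and DNA replication 2 rose and 2 fell. Mcm7, a subunit of the replicative helicase, read 6.49, 6.42, 6.56 and 6.45 in untreated arrays and 7.12, 7.18, 7.23 and 7.07 under rapamycin (1.59-fold, SE 0.0772 on the log2 scale, limma adjusted p = 4.71e-05), and Cdk6, a G1 kinase, rose by 0.62. E2f3, a factor of S phase entry with a level below the receptor floor, fell by 0.71. Of 28 mitosis genes only 1 was well measured, while 1 fell, Birc5, the gene of survivin (-0.67), and 1 rose, Ndc80 of the kinetochore, whose call was lost without any 1 of 6 arrays (adjusted p from 0.0506 to 0.0957). Among 31 interferon-stimulated genes 4 fell (12.9%), near the 12.8% of well-measured genes called lower. That count was 1 without untreated replicates 1 or 3 or rapamycin replicate 1, and 2 without replicate 2 of either group. It was 2 after median centring and 8 in a fit of the 8 arrays alone. Ifit3 read 7.23, 6.98, 7.03 and 6.90 against 6.28, 6.55, 6.30 and 6.48 (1.55-fold lower, SE 0.123, adjusted p = 0.00305).

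Markers of other cell types were mostly near the level of silent genes. Of 10 markers of B cells 1 was well measured, of 11 of CD8 T and NK cells 2, of 10 of macrophages and monocytes 2, of 7 of dendritic cells 2, of 8 of stromal and endothelial cells 1, and none of 5 of plasma cells, of 9 of neutrophils or of 2 of erythroid cells. Summed log2 levels of all matched markers overlapped between groups for macrophages (49.1 to 50.1 in untreated and 47.9 to 51.4 in rapamycin arrays), dendritic cells (35.0 to 36.1 and 34.8 to 36.4), neutrophils (35.5 to 39.0 and 34.3 to 38.8), stromal cells (34.6 to 36.1 and 34.5 to 35.9) and plasma cells (19.6 to 20.6 and 19.5 to 20.4). The sums were lower in all rapamycin arrays for CD8 T and NK cells (49.5 to 51.9 and 48.0 to 49.2) and for B cells (44.9 to 45.3 and 42.6 to 44.3), lists in which 1 gene each was called, and for erythroid cells (8.7 to 8.9 and 8.2 to 8.6), in which no gene was called. They were also lower in all rapamycin arrays for markers of conventional T cells (77.9 to 79.0 and 74.3 to 77.1). Of those 10 genes 4 fell (40.0%) and 1 rose. The fallers were Cd40lg, the ligand by which helper T cells act on B cells (-0.75), Il2, the growth factor that Treg cells make little of (-0.76), Thy1 (-0.88) and Actn1, an actin cross-linker (-0.71), and the riser was the chromatin organiser Satb1 (0.44). Il2 lost the call without any 1 of 5 arrays (adjusted p from 0.0527 to 0.0806), and Satb1 likewise (adjusted p from 0.0529 to 0.0922). Thy1 is also counted among the proximal signalling genes. The markers Cd79a of B cells, Cd8a of CD8 T cells, Csf1r and Adgre1 of macrophages and Itgax of dendritic cells had mean levels of 4.557, 4.612, 4.602, 4.006 and 3.525, all below the receptor floor. Each of these lists also held the well-measured markers counted above. Lyz2, a lysozyme gene of myeloid cells, read 6.23, 5.86, 5.98 and 5.99 in untreated arrays and 6.75, 6.58, 7.28 and 7.46 under rapamycin and was not called (log2 fold change 1.00, limma adjusted p = 0.164). Xcr1, a dendritic cell receptor at a level below the receptor floor, fell by 1.10 (SE 0.155, adjusted p = 0.000251). Cd40lg and Il2 are also counted among the cytokine genes. The part of other cells in any result above was not tested. In sorted bulk samples fewer cells of a type and less RNA per cell cannot be told apart.

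The same treatment was applied to Atg7-/- cells, whose 8 arrays are separate from those above. Both genotypes share the submitters' processing, the choice of probe sets, the filter on dim genes and the estimate of each gene's spread. The repeat described here is therefore not fully independent. Of the 1378 well-measured genes called in Atg7+/- cells 1367 (99.2%) had the same direction in Atg7-/- cells, 985 (71.5%) were called there in that direction, and none was called in the opposite one. Among well-measured genes that were not called in Atg7+/- cells 75.0% had the same direction. Of the 54 genes beyond the receptor range 53 had the same direction and 52 were called. The median absolute log2 fold change of the called genes was 0.44 in Atg7+/- cells, which chose them, and 0.41 in the same direction in Atg7-/- cells. Over all genes tested 3347 (20.0%) were called in Atg7-/- cells.

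The sizes of change in Atg7-/- cells were close for some genes and not for others. Crebrf rose by 1.49 there, Klhl24 by 1.79, Txnip by 1.32, Atg13 by 1.04 and Mapkap1 by 0.57. Zap70 fell by 0.74, Ccr8 by 0.98, Hk2 by 0.80 and Pkm by 0.65. Larger in Atg7-/- cells were the changes of Ifng (-2.83 against -1.92) and S100a4 (-2.28 against -1.43). Smaller in Atg7-/- cells were the changes of Xcl1 (-1.09 against -1.84), Npy (-0.73 against -1.42), Krtap4-13 (0.69 against 1.22) and Ifna4 (0.54 against 1.14, not called in Atg7-/- cells). None of these differences between genotypes passed its own test in limma. In Atg7-/- cells 8.83% of all genes tested were called higher and 11.1% lower. Among well-measured genes 13.1% were called higher and 13.4% lower there. The glycolysis list had 12 falling genes of 18 there too, the homing list 11 of 23 and the proximal signalling list 12 of 27. Autophagy genes numbered 16 risers of 41 and respiratory subunits 16 risers of 64, and mitosis genes 14 fallers of 28. Hspa1a had a log2 fold change of 0.06 in Atg7-/- cells (limma adjusted p = 0.952), and the difference between genotypes did not pass (adjusted p = 0.72). Its mean in untreated Atg7-/- arrays was 5.90, already below the receptor floor, against 8.58 in untreated Atg7+/- arrays.

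The test of the difference between the rapamycin effects called no gene in limma, and 1052 of 16760 genes (6.28%) had an unadjusted p under 0.05, as did 4.79% of well-measured genes. The smallest adjusted p was 0.139. It was shared by Gzmb, Trappc6a and Nemp1. Gzmb, the protease granzyme B, read 6.76, 7.23, 7.27 and 7.06 in untreated and 6.57, 6.47, 6.66 and 6.45 in rapamycin Atg7+/- arrays (log2 fold change -0.55, adjusted p = 0.24), and it fell by 2.92 in Atg7-/- cells. Its Atg7+/- groups did not overlap. Its standard deviation was 0.232 and 0.0959 in those groups and 0.958 in the Atg7-/- rapamycin arrays, which enter the same estimate of spread. Trappc6a, a subunit of a vesicle tethering complex, had a log2 fold change of 0.26 in Atg7+/- cells and 0.96 in Atg7-/- cells, and Nemp1, a protein of the nuclear envelope, 0.18 and 0.86.

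**Figure D5:**
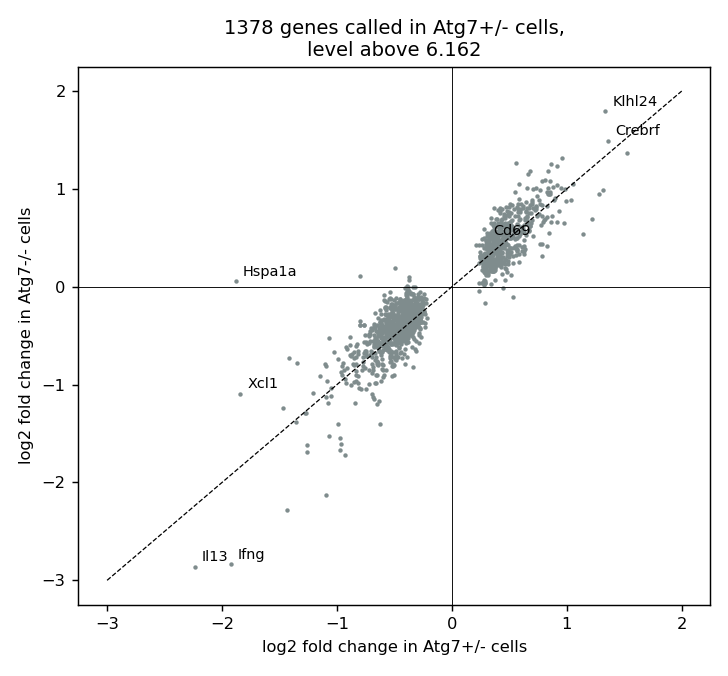
Log2 fold change under rapamycin in Atg7+/- cells (horizontal axis) and in Atg7-/- cells (vertical axis) for the 1378 well-measured genes called in Atg7+/- cells, with equality as a dashed line. In all, 1367 of 1378 points have the same sign on both axes, and Hspa1a lies apart at -1.88 and 0.06.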

How the data were processed

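Total RNA of 1 to 5 ng was amplified and biotin-labelled with NuGEN kits and hybridised to arrays, per the labels' protocols. The deposited table holds 41345 probe sets on 16 arrays. Its values are deposited on a log scale from 1.4886 to 13.4975, taken here as log2; the submitters' processing notes name RMA and Partek 6.6 and give no settings, and the log base is unstated, and neither the genome build nor the annotation version is given in the sources used here. Array output carries no counts, and precision rests on how many arrays there are.

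Of the probe sets 23521 carried 1 gene symbol, 1814 several and 16010 none in the platform annotation, and 23328 matched a current RefSeq record. Of 22180 genes, 1082 had more than 1 probe set and the brightest was used. Genes whose highest group mean exceeded 3.549, the 30th percentile of all values, were tested. limma 3.58.1 in R 4.3.3 (lmFit, eBayes) fitted 1 mean per group over all 16 arrays, with two-sided p-values adjusted by Benjamini-Hochberg over 16760 genes, and adjusted values under 0.05 were called. On simulated data for rapamycin in Atg7+/- cells over 16760 genes, 52 of 100 genes changed by 0.5 on the log2 scale were recovered. Of those changed by 1, 97 of 100 were recovered, and 11 unchanged genes were called. The simulated noise was independent between genes, and far fewer genes were changed than the 2370 called in the data. These rates therefore check the fit and are not error rates of the assay.

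The genes and the 45 gene lists were chosen with earlier results of these data known. Of 1120 list entries 1024 matched. Genes named by rule were Foxp3, Atg7, Myc, Mtor and Fkbp1a; the 12 largest rises and falls among called, non-overlapping, well-measured genes outside the receptor, microRNA, small RNA, predicted and antigen receptor classes; up to 4 called members per direction of each list by size of change, or 2 with the smallest p where none was called; 3 per direction for the difference; and 2 receptor genes per direction. Other named genes, such as Ulk1, Ldha, Lyz2 and Foxo1, were chosen after their values were seen. Promoters came from RefSeq GRCm38.p6. Alternatives covered scaling, filters, samples in the fit, moderation, array weights, probe set choice, a replicate block and leaving out each array.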

Additional observations from a re-analysis of the deposited data

Results flagged for a closer look

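Of 372 groups of 4 arrays checked for a sample far from the other 3, 15 stood out, against about 1 in 20 by chance. In untreated arrays, replicate 2 read 11.32 for Foxp3 against 11.24 in each of the others, 6.66 for Ccl3 against 7.33 to 7.41, and 6.12 for Selenbp1 against 6.22 to 6.24. Untreated replicate 1 read 6.83 for Car12 against 6.45 to 6.46 and 7.57 for Tk1 against 7.93 to 7.98, and untreated replicate 3 read 9.72 for Izumo1r against 9.60 to 9.62.

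In rapamycin arrays, replicate 1 stood apart for 5 genes. It read 6.91 for Trappc6a against 6.75 to 6.77, 6.99 for Sdhd against 7.16 to 7.17, 8.87 for Nfkbib against 9.13 to 9.17, 6.83 for Herpud1 against 7.28 to 7.37 and 9.26 for Cdk6 against 8.87 to 8.92. Replicate 2 read 8.91 for Slc38a1 against 8.98 in each of the others and 4.31 for Flt3 against 4.76 to 4.79. Replicate 3 read 5.83 for Car12 against 6.15 to 6.18 and 7.87 for Nol6 against 7.47 to 7.53.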

How the results depend on the processing

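The count of genes called for rapamycin in Atg7+/- cells, 2370, was 2054 to 2662 over the ways of scaling, 2224 with no filter, 2451 with a stricter filter (highest group mean above 4.775, the receptor genes' 95th percentile in that measure, which is lower than the level of 6.162 that defines well-measured genes), 2776 from its own 8 arrays, 2550 with trend and robust options, 3428 with array weights and 2328 with probe sets averaged. It was 1554 to 2119 with 1 array left out, at 1554 without rapamycin replicate 2. For Atg7-/- cells that range was 2513 to 3414. The difference between genotypes gave 0 to 1 genes, the 1 without Atg7-/- rapamycin replicate 2. The share of receptor genes called was 5.38% with no filter, 40.0% with that stricter filter, and 14.7% to 19.2% with 1 array left out. Of 171 called genes in the named set 57 lost the call without at least 1 array, and none of these reversed; the gene Mtor (from -0.01389 without untreated replicate 3 to 0.05452 without untreated replicate 2) and the gene H2ac10 (from -0.04027 without untreated replicate 1 to 0.1225 without untreated replicate 2), neither called, changed sign. The cause was not tested. With the replicate number as a block 2492 genes were called (3491 in Atg7-/- cells), but same-numbered arrays did not deviate together (correlations of 0.006, 0.017, 0.139 and -0.002), so the numbers were not taken as pairs.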
